A study of Mus musculus with 9 samples.

Results

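The 35 genes described here are macrophage genes measured in whole subcutaneous adipose tissue of mice with an endothelial AGO1 knockout and of wild-type mice. AGO1 is an Argonaute protein that carries microRNAs. The 35 genes were taken by name from a fixed list, and all were found among the 35071 genes to which the transcripts of the deposited tables could be assigned. All 35 were also among the 17968 genes that passed the filter on low counts and were tested, so no member was left out. The list holds 4 genes of the CSF1 axis and its transcription factors, 13 pan-macrophage and leukocyte genes, 6 Fc receptors and adaptors, 5 resident-like markers, 4 lipid-associated markers and 3 lectin and scavenger receptors. The animals were C57BL/6 mice aged 24 weeks in 3 groups of 3 libraries. Homo KO and Hete KO are the groups with the endothelial AGO1 knockout, and WT are their wild-type littermates. The labels distinguish the knockout groups by these names alone, which are read here as homozygous and heterozygous. The sources used here do not give the driver of the deletion, the sex of the animals or any pooling. Frozen whole tissue gave the RNA, so every value mixes macrophages with fat cells, vessels, stroma and any neighbouring tissue.

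Adipose tissue macrophages depend on signalling through the receptor for the growth factor CSF1, and the transcription factors PU.1 (Spi1) and IRF8 set up and maintain the myeloid programme. Fat holds macrophages that settle in the healthy tissue and carry scavenger and lectin receptors such as CD163, the mannose receptor and the folate receptor beta. It also holds lipid-associated macrophages, which gather around enlarged or dying fat cells, take up lipid and carry TREM2, GPNMB, CD9 and galectin-3. TREM2 and the activating Fc receptors have no signalling tail of their own and signal through the small adaptors TYROBP and the Fc receptor gamma chain.

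Promoter sequences are shown for 4 members because the 35 genes share a lineage whose main transcription factor reads a known purine-rich word. The windows run from 250 bases before to 50 bases after the RefSeq gene start on GRCm38.p6, and 26 of the 35 members had an entry. Csf1r, Spi1, Adgre1, Cd86, Tyrobp, Lilrb4a, Clec10a, Msr1 and Clec4n had none. The word GAGGAAGT was searched on both strands and was found in 3 of the 26 member windows (11.5%), against 3.69% of 27025 gene windows of the same length. The shorter word GAGGAA, which is part of it, was found in 14 of 26 member windows (53.8%), against 31.3% of all gene windows. These are matches of letters only, with no test. Ctss, Cd53 and Pf4 hold the longer word and Trem2, the member with the widest range of levels, holds the shorter one. Each matched on the opposite strand, so that capitals mark ACTTCCTC in the first 3 sequences and TTCCTC in Trem2, written from 5′ to 3′ on the gene's strand. They lie at chr3:95526536-95526835 on the plus strand (Ctss), chr3:106790100-106790399 on the minus strand (Cd53), chr5:90772185-90772484 on the plus strand (Pf4) and chr17:48346151-48346450 on the plus strand (Trem2).
Ctss: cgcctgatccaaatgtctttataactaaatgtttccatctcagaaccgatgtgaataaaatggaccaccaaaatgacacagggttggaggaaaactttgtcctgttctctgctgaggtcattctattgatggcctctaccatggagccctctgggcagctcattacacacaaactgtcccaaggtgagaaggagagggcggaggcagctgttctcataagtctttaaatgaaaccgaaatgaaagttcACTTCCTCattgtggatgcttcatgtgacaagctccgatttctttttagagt
Cd53: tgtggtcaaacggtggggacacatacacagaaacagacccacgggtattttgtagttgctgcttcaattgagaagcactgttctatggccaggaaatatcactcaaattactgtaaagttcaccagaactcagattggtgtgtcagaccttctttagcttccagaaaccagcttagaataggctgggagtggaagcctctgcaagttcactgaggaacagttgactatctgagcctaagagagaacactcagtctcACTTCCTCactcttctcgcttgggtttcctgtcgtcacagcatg
Pf4: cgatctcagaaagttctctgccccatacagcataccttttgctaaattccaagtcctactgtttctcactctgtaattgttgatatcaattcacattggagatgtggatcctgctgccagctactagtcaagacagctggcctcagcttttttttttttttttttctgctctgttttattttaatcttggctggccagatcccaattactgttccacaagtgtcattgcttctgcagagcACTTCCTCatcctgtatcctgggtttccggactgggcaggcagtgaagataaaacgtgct
Trem2: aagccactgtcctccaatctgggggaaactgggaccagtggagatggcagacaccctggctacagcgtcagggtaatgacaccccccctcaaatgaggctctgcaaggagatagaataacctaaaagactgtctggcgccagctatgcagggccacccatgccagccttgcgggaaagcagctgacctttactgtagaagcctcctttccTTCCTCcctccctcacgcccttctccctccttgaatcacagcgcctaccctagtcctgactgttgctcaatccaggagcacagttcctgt
The longer word begins 2 bases before the gene start in Ctss, 10 bases before it in Pf4 and at base 6 of the transcribed part in Cd53, and the shorter word begins 40 bases before the start in Trem2.

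The libraries held between 20843427 and 28252001 estimated counts. The targeted gene Ago1 ranged from 7.64 to 20.4 TPM (a transcript share scaled to length and depth) in Homo KO libraries. It ranged from 17.6 to 18.4 TPM in Hete KO and from 15.8 to 26.0 TPM in WT libraries. In TPM the groups thus overlapped in this whole tissue. In CPM (counts scaled to depth but not to length) Ago1 had 62.2, 58.6 and 25.8 in Homo KO 1, 2 and 3. Hete KO 1, 2 and 3 had 51.2, 59.7 and 60.1, and WT 1, 2 and 3 had 69.9, 63.8 and 63.4. In CPM all knockout libraries lay below all WT libraries, though Homo KO 1 and WT 3 were close. Some libraries carried RNA of other tissues. A list of 18 skeletal muscle genes took 0.0153 to 0.0791% of the counts in Homo KO libraries. Its share was 0.409% in Hete KO 1, 8.10% in Hete KO 2 and 0.102% in Hete KO 3. The WT libraries had 3.39% (WT 1), 2.64% (WT 2) and 0.0221% (WT 3). A list of 14 liver genes took 0.0136 to 0.0187% in Homo KO, 0.0168 to 0.0214% in Hete KO, and 0.0072, 0.145 and 0.128% in WT 1, 2 and 3. The muscle genes were high in Hete KO 2, WT 1 and WT 2, and the liver genes in WT 2 and WT 3. Values without the muscle-transcript or the liver-transcript libraries are given beside the results that rest on them most.

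As a group, the macrophage genes were lowest on average in Hete KO, though Homo KO 3 lay below Hete KO 1 and Hete KO 3. They were highest in WT 1 and WT 2. Their summed level per library was 1581, 1179 and 794 TPM in Homo KO 1, 2 and 3, 1044, 612 and 850 TPM in Hete KO 1, 2 and 3, and 1915, 1931 and 1144 TPM in WT 1, 2 and 3. The Hete KO and WT sums do not overlap, while the Homo KO sums overlap with both. In bulk tissue, fewer macrophages and less RNA of these genes per macrophage cannot be told apart. The 3 libraries at the extremes are those with muscle transcripts: Hete KO 2 was the lowest library for 25 of the 35 members, against 18.9% of all genes, and WT 1 or WT 2 was the highest for 17 and 14 of them, against 14.5 and 18.2% of all genes. WT 3, with the fewest muscle transcripts of the WT libraries, had a sum within the range of the Homo KO libraries. The part of the muscle and liver transcripts in the macrophage result was not tested.

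**Figure D1:**
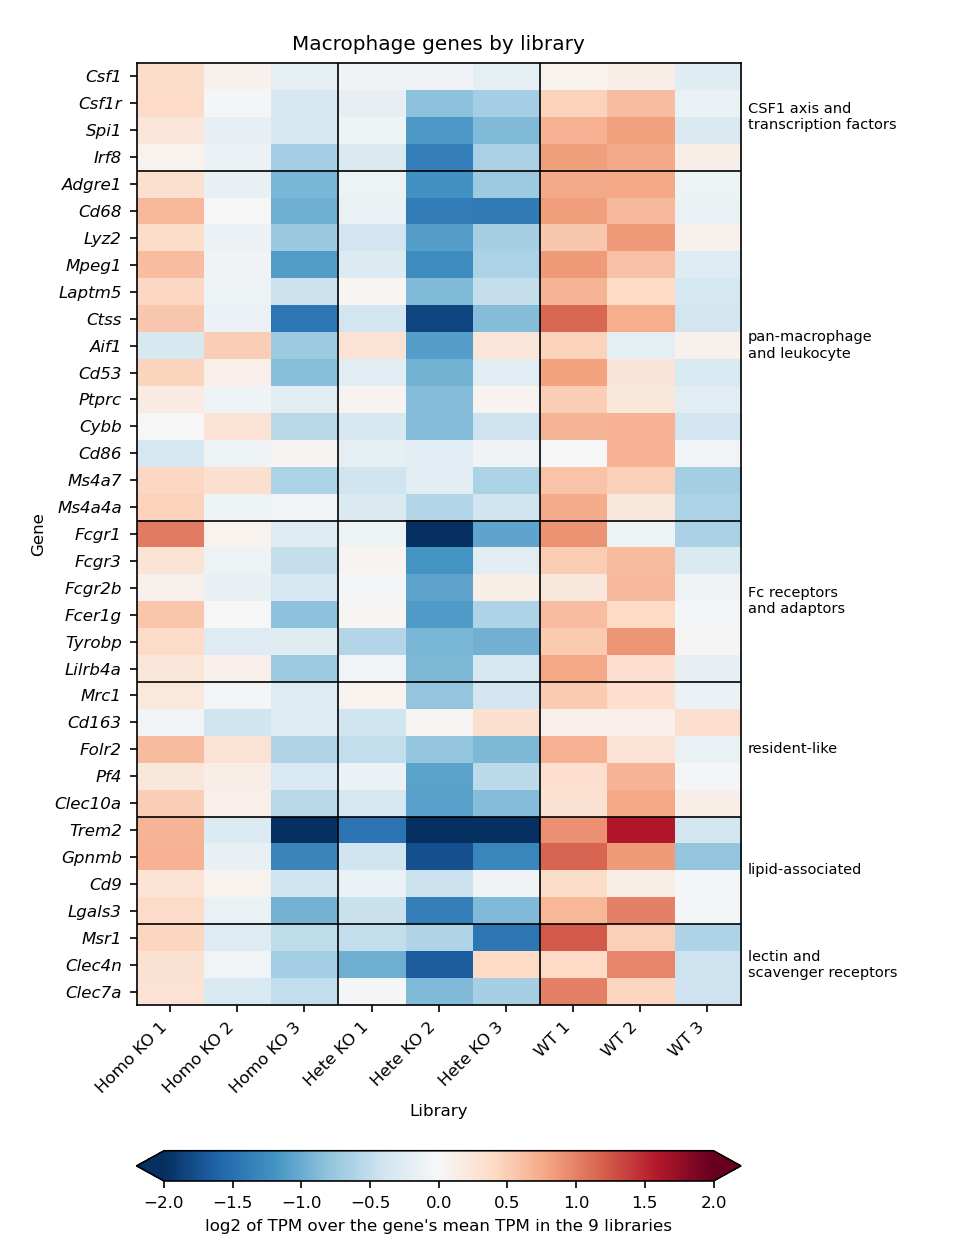
Heat map of the 35 macrophage genes (rows, grouped by role) in the 9 libraries (columns), coloured by log2 of TPM over the gene's mean TPM in the 9 libraries; colours stop at 2 in either direction. WT 1 and WT 2 are mostly red, Hete KO 2 is mostly blue, and Csf1, Cd163, Cd9 and Cd86 vary little.

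The comparison of each knockout group with WT asks whether the endothelial AGO1 knockout goes with a change in these genes. Trem2, Gpnmb, Ctss and Lgals3 had the lowest log2 fold changes in Hete KO against WT, between -1.89 and -1.44, and 1 member, Csf1, was near 0 in both. No member passed edgeR's quasi-likelihood test at an adjusted p of 0.05 in either comparison. For Homo KO against WT this held for every gene tested (0%), and for Hete KO against WT 48 of all genes tested (0.267%) were called lower and 27 (0.15%) higher. Without adjustment, 6 members had p under 0.05 in Homo KO against WT, all lower, as did 8.68% of all genes in that direction. In Hete KO against WT there were 27 such members, all lower, against 12.1% of all genes. These counts are descriptions, as the members share cells and were chosen with earlier results of these data known. In TPM, Hete KO and WT did not overlap for 14 members, all lower in Hete KO, against 9.94% of all genes. DESeq2 at the same adjusted threshold called 1 member lower in Homo KO against WT (2.25% of all genes), which was Irf8, and 17 lower in Hete KO against WT (6.48% of all genes). With Hete KO 1 left out, edgeR called 12 members lower in Hete KO (3.25% of all genes).

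In Homo KO against WT 34 of 35 were below 0, against 50.7% of all genes, with a median log2 fold change of -0.43, against -0.01 over all genes. In Hete KO against WT all 35 were below 0, against 48.6% of all genes, with a median of -0.87, against 0.02 over all genes. The members share cells and libraries, so these counts are not independent measurements, and both comparisons share the WT libraries. Without the muscle-transcript libraries, where WT 3 is the only WT library left and is assumed to vary like the others, 19 of 35 were below 0 in Homo KO with a median of -0.01. In Hete KO 29 of 35 were then below 0 with a median of -0.31. Without the liver-transcript libraries, only WT 1 is left in WT, and it carries muscle transcripts. There 33 of 35 were below 0 in Homo KO and all 35 in Hete KO.

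**Figure D2:**
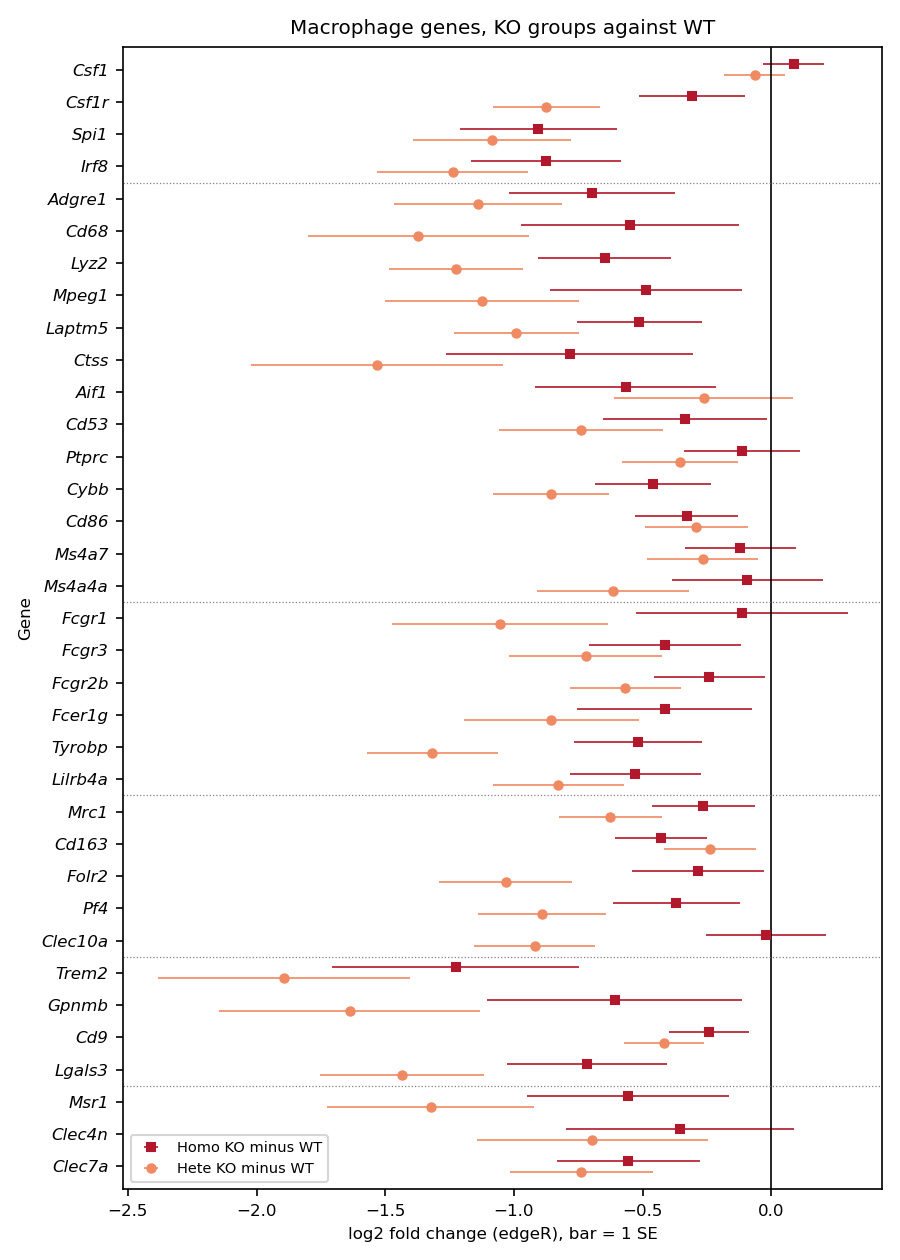
Log2 fold changes of the 35 macrophage genes (edgeR) for Homo KO minus WT (squares) and Hete KO minus WT (circles), with bars of 1 SE. All 35 Hete KO values and 34 of 35 Homo KO values lie below 0, and Trem2, Gpnmb, Ctss and Lgals3 lie far to the left in Hete KO.

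Within the CSF1 axis, the ligand was steady while the receptor and both transcription factors varied widely. Csf1, the growth factor made by many cells of the tissue, had 31.9, 26.2 and 21.9 TPM in Homo KO 1, 2 and 3, 23.5, 23.5 and 21.6 TPM in Hete KO 1, 2 and 3, and 25.8, 27.2 and 20.8 TPM in WT 1, 2 and 3. Csf1 gave a log2 fold change of 0.09 ± 0.12 (SE) in Homo KO against WT and -0.06 ± 0.12 in Hete KO against WT, and with a range of 1.53-fold it was the steadiest member. Its receptor Csf1r had 46.9, 35.3 and 28.8 TPM in the Homo KO libraries, 32.1, 20.4 and 22.3 TPM in the Hete KO libraries, and 49.4, 55.1 and 32.9 TPM in the WT libraries, again in the order 1, 2 and 3, which holds from here on. All Hete KO libraries lay below all WT libraries, by a narrow margin for Hete KO 1 and WT 3. The log2 fold change of Csf1r was -0.87 ± 0.21 in Hete KO against WT (edgeR adjusted p = 0.0722) and -0.31 ± 0.21 in Homo KO against WT (edgeR adjusted p = 0.480).

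Spi1, which encodes PU.1, had 13.9, 10.5 and 9.22 TPM in Homo KO, 11.1, 5.29 and 6.39 TPM in Hete KO, and 19.1, 20.7 and 9.65 TPM in WT libraries. In TPM, WT 3 lay inside the Homo KO range and below Hete KO 1. In CPM, WT 3 lay above all knockout libraries, with 10.2 against 9.27 in Hete KO 1, the highest of them. The log2 fold change of Spi1 was -1.09 ± 0.31 in Hete KO and -0.91 ± 0.30 in Homo KO against WT (edgeR adjusted p = 0.0965 and 0.223). Irf8 had 21.4, 18.6 and 12.7 TPM in Homo KO, 16.6, 7.86 and 12.9 TPM in Hete KO, and 36.0, 34.3 and 21.9 TPM in WT libraries. In TPM it was the 1 member whose 6 knockout libraries all lay below the 3 WT libraries. In that direction 3.93% of all genes showed this pattern, and Homo KO 1 and WT 3 were close. In coding transcripts alone these libraries overlapped, with 15.6 TPM in Homo KO 1 and 15.4 TPM in WT 3. In CPM the pattern held for Irf8 and also for Spi1 and Fcgr2b. The log2 fold change of Irf8 was -1.24 ± 0.29 in Hete KO and -0.88 ± 0.29 in Homo KO against WT (edgeR adjusted p = 0.0713 and 0.221). IRF8 is also made by dendritic cells and B cells, whose lists are given after the members.

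Among the pan-macrophage genes, Lyz2 (lysozyme of myeloid cells) was the most abundant member per length. It had 333, 238 and 154 TPM in Homo KO, 197, 119 and 163 TPM in Hete KO, and 373, 467 and 274 TPM in WT libraries. All Hete KO libraries were below all WT libraries, with a log2 fold change of -1.22 ± 0.26 (edgeR adjusted p = 0.0619), and Homo KO against WT gave -0.65 ± 0.26 (edgeR adjusted p = 0.264). Its near copy Lyz1 stood at 11.4 to 22.2 TPM over all libraries, and reads shared between the copies may have been split by the authors' quantification.

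Adgre1, an adhesion receptor that marks mouse macrophages, had 22.4, 16.3 and 9.49 TPM in Homo KO, 16.8, 7.81 and 10.8 TPM in Hete KO, and 30.6, 30.9 and 16.8 TPM in WT libraries. Hete KO 1 and WT 3 were alike to 3 digits, and the log2 fold change was -1.14 ± 0.33 in Hete KO and -0.70 ± 0.32 in Homo KO against WT. Cd68, a lysosomal glycoprotein of macrophages, had 35.2, 22.2 and 11.4 TPM in Homo KO, 20.3, 8.47 and 8.38 TPM in Hete KO, and 39.7, 35 and 20.3 TPM in WT libraries. The Cd68 groups met at Hete KO 1 and WT 3, and its log2 fold change in Hete KO was -1.37 ± 0.43. Ptprc, which encodes CD45 and is carried by all leukocytes, had 54.0, 45.2 and 41.5 TPM in Homo KO, 50.3, 26.3 and 50.4 TPM in Hete KO, and 68.2, 56.8 and 41.8 TPM in WT libraries. Its groups overlapped widely and its log2 fold change in Hete KO was -0.35 ± 0.23.

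Mpeg1, a pore-forming protein of phagosomes, had 34.9, 21.8 and 10.5 TPM in Homo KO, 18.9, 9.56 and 14.7 TPM in Hete KO, and 40.9, 34.3 and 19.1 TPM in WT libraries. Ctss, a lysosomal cysteine protease that trims the invariant chain, had 172, 109 and 43.3 TPM in Homo KO, 91.2, 33.3 and 65.2 TPM in Hete KO, and 263, 196 and 91.7 TPM in WT libraries. In both genes all Hete KO libraries were below all WT libraries, though Hete KO 1 and WT 3 were almost equal, and Homo KO 3 was as low as the Hete KO libraries. The log2 fold changes in Hete KO were -1.12 ± 0.38 for Mpeg1 and -1.53 ± 0.49 for Ctss. Cd86, a costimulatory ligand, had 6.39, 7.59 and 8.41 TPM in Homo KO, 7.09, 6.99 and 7.74 TPM in Hete KO, and 8.05, 13.2 and 7.80 TPM in WT libraries. In TPM Hete KO and WT did not overlap in Cd86, but the log2 fold change was -0.29 ± 0.20 and the gap between Hete KO 3 and WT 3 was small. In CPM Hete KO 1 (7.82) and Hete KO 2 (8.13) lay above WT 3 (7.81). Coding transcripts held 41.2% of the TPM of Cd86. Ms4a4a, a tetraspan membrane protein from a family of similar genes, had 14.9, 10.0 and 10.4 TPM in Homo KO, 8.84, 7.21 and 8.2 TPM in Hete KO, and 18.1, 12.6 and 6.94 TPM in WT libraries. Homo KO lay above Hete KO in every library of Ms4a4a, while WT spanned both. The others of this role (Laptm5, Aif1, Cd53, Cybb and Ms4a7) had log2 fold changes in Hete KO against WT between those of Ctss, the lowest, and Aif1 at -0.26, the highest of the 13 genes, and none of them passed edgeR's test. DESeq2 called Laptm5 and Cybb lower in Hete KO against WT, and edgeR without Hete KO 1 called Laptm5.

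Fc receptors bind antibody, and the adaptors carry the tyrosine motifs through which activating receptors signal. Tyrobp, the adaptor of TREM2 and many other receptors, had 30.6, 19.4 and 19.7 TPM in Homo KO, 15.6, 12.3 and 12 TPM in Hete KO, and 33.5, 43.1 and 23.8 TPM in WT libraries. The Hete KO libraries were below every other library. Its log2 fold change was -1.32 ± 0.26 in Hete KO against WT (edgeR adjusted p = 0.0591, the smallest of the members in that comparison) and -0.52 ± 0.25 in Homo KO against WT (edgeR adjusted p = 0.335). Fcer1g, the Fc receptor gamma chain, had 45.6, 31.1 and 17.6 TPM in Homo KO, 31.7, 14.1 and 20.2 TPM in Hete KO, and 47.9, 40.9 and 30.5 TPM in WT libraries. Hete KO 1 was just above WT 3 in TPM and just below it in CPM (10.6 against 11.1). The log2 fold change of Fcer1g in Hete KO was -0.85 ± 0.34.

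Fcgr1, the high-affinity receptor CD64 that separates macrophages from most dendritic cells, was scarce. Its levels were 5.08, 2.59 and 2.07 TPM in Homo KO, 2.30, 0.557 and 1.20 TPM in Hete KO, and 4.59, 2.30 and 1.58 TPM in WT libraries. The range of 9.12-fold in TPM was set by Hete KO 2 and Homo KO 1. In CPM WT 1 was the highest library, with 5.18 against 3.85 in Homo KO 1, as in coding transcripts alone (2.96 against 1.82 TPM). In Hete KO the log2 fold change of Fcgr1 was -1.05 ± 0.42, and the groups overlapped. Fcgr3, a low-affinity activating receptor, had 44.6, 34.3 and 26.4 TPM in Homo KO, 38.3, 15.9 and 31.4 TPM in Hete KO, and 52.5, 56.8 and 30.2 TPM in WT libraries. Fcgr2b, the inhibitory receptor, had 21.8, 18.4 and 16.2 TPM in Homo KO, 20.1, 9.91 and 22.3 TPM in Hete KO, and 24.1, 32.1 and 19.5 TPM in WT libraries. In TPM Hete KO 2 was the low library in both genes, and the other Hete KO libraries reached the level of WT 3. In CPM Fcgr2b had 27.0 in Hete KO 1 and 25.4 in Hete KO 3, below the 31.8 of WT 3. The log2 fold changes of Fcgr3 and Fcgr2b in Hete KO were -0.72 ± 0.30 and -0.57 ± 0.22, and as near copies these genes may share reads. Lilrb4a, an inhibitory receptor with a similar neighbour, ranged from 14.7 to 46.9 TPM, of which 6.59% came from coding transcripts.

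**Figure D3:**
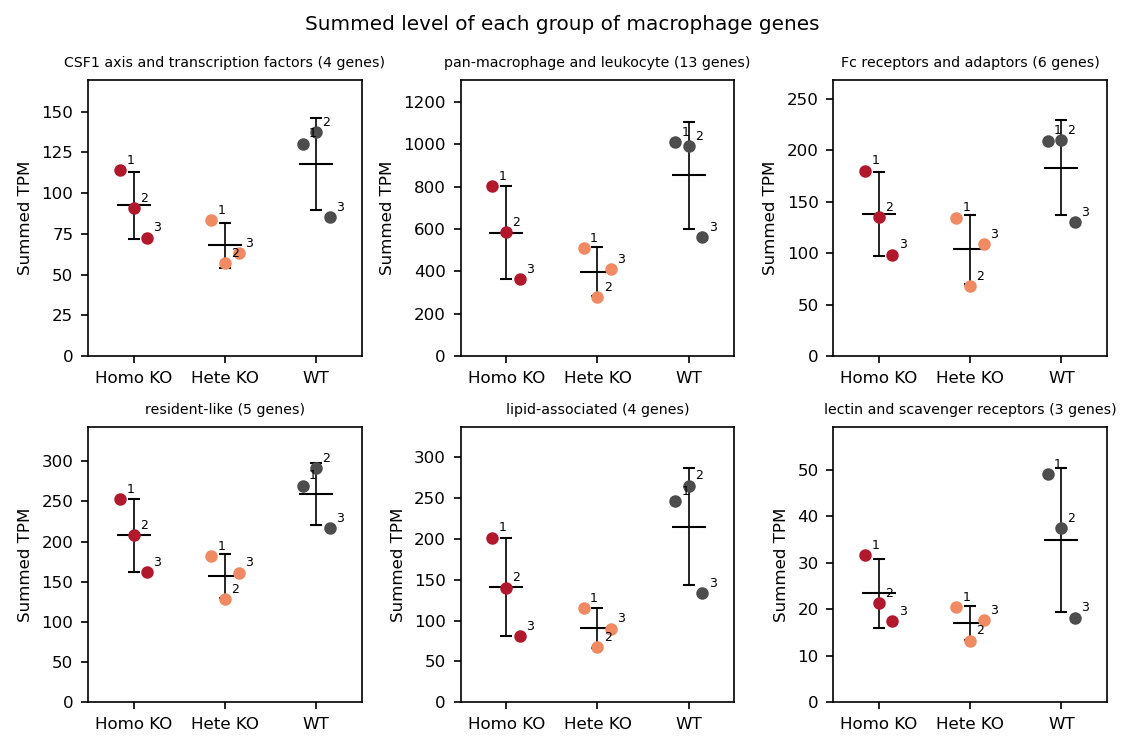
Summed TPM of the 6 roles of macrophage genes in each library (points, labelled with the replicate number), with the group mean and SD (n = 3) as a bar. WT 1 and WT 2 lie above the knockout libraries in every panel, and WT 3 lies within or close to the range of the knockout groups.

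The resident-like markers had a spread of 0.20 between libraries of a group (pooled SD of their median log2 level), against 0.51 for the lipid-associated ones. Their sum was 253, 208 and 162 TPM in Homo KO, 182, 129 and 161 TPM in Hete KO, and 270, 291 and 216 TPM in WT libraries. Hete KO and WT sums did not overlap, and the median log2 fold change of the 5 genes was -0.28 in Homo KO and -0.89 in Hete KO against WT. Mrc1, the mannose receptor, had 70.5, 59.5 and 50.9 TPM in Homo KO, 63.6, 35.2 and 46.8 TPM in Hete KO, and 87.6, 76.7 and 56.1 TPM in WT libraries, with WT 3 inside the range of both knockout groups. Its log2 fold change was -0.63 ± 0.20 in Hete KO and -0.26 ± 0.20 in Homo KO against WT. Cd163, the scavenger receptor for haemoglobin bound to haptoglobin, had 38.9, 30.8 and 34.2 TPM in Homo KO, 30.7, 41.1 and 50.5 TPM in Hete KO, and 43.6, 43.2 and 51.1 TPM in WT libraries. In contrast to the other members, Cd163 was below WT in TPM without overlap in Homo KO and not in Hete KO. The muscle-rich library Hete KO 2 was not low in Cd163. Its log2 fold change was -0.43 ± 0.18 in Homo KO (edgeR adjusted p = 0.279) and -0.24 ± 0.18 in Hete KO against WT (edgeR adjusted p = 0.477). Irf8 and Cd163 were the 2 members whose Homo KO libraries lay below all WT libraries in TPM, as did 8.07% of all genes. In CPM this also held for Spi1, Fcgr2b and Aif1.

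Folr2, the folate receptor beta, had 23.2, 18.3 and 9.87 TPM in Homo KO, 10.6, 8.73 and 8.0 TPM in Hete KO, and 24.2, 18.0 and 13.6 TPM in WT libraries. Pf4, a chemokine of platelets and resident macrophages, had 44.3, 41.5 and 30.7 TPM in Homo KO, 34.9, 18.1 and 26.5 TPM in Hete KO, and 47.8, 60.8 and 36.8 TPM in WT libraries. In both genes Hete KO lay below WT without overlap and Homo KO overlapped with WT. The log2 fold changes in Hete KO against WT were -1.03 ± 0.26 for Folr2 (edgeR adjusted p = 0.0770) and -0.89 ± 0.25 for Pf4 (edgeR adjusted p = 0.0958). Clec10a, a lectin for galactose-type sugars, had 75.9, 57.7 and 36.9 TPM in Homo KO, 42.3, 25.5 and 29.6 TPM in Hete KO, and 66.6, 92.4 and 58.9 TPM in WT libraries. Each Hete KO value was under each WT value, with a log2 fold change of -0.92 ± 0.24 (edgeR adjusted p = 0.0812), and Homo KO 1 lay above 2 of the 3 WT libraries, with -0.02 ± 0.23 in Homo KO against WT. The sign of that last value turned to 0.20 with coding transcripts only, which held 31.2% of the TPM of Clec10a.

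The lipid-associated markers varied more between animals than the resident-like ones. Their sum was 201, 140 and 81.1 TPM in Homo KO, 115, 67.3 and 90.0 TPM in Hete KO, and 246, 265 and 134 TPM in WT libraries. All Hete KO sums were below all WT sums, and the median log2 fold change of the 4 genes was -0.66 in Homo KO and -1.54 in Hete KO against WT. Trem2, a receptor for lipids and lipoproteins, had 6.45, 3.32 and 0.703 TPM in Homo KO, 1.45, 0.895 and 0.480 TPM in Hete KO, and 7.56, 12.3 and 3.12 TPM in WT libraries. Its 25.6-fold range in TPM, from a low level of 0.480 TPM, was the widest of the members. In CPM Trem2 ran from 1.36 in Homo KO 3 to 11.1 in WT 2, and 57.9% of its TPM came from coding transcripts. Every Hete KO library was below every WT library in TPM and in CPM. The log2 fold change of Trem2 was -1.89 ± 0.49 in Hete KO (edgeR adjusted p = 0.0825) and -1.23 ± 0.48 in Homo KO against WT (edgeR adjusted p = 0.258).

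Gpnmb, a transmembrane glycoprotein of lipid-laden macrophages, had 46.9, 26.1 and 11.6 TPM in Homo KO, 21.8, 8.53 and 11.7 TPM in Hete KO, and 65.1, 52.0 and 16.7 TPM in WT libraries. WT 3 lay below Hete KO 1 in this gene. The log2 fold change was -1.64 ± 0.51 in Hete KO and -0.61 ± 0.50 in Homo KO against WT, and without the muscle-transcript libraries it was -0.27 in Hete KO and 0.56 in Homo KO. Lgals3, which encodes galectin-3, had 105, 73.0 and 41.6 TPM in Homo KO, 58.9, 31.0 and 43.2 TPM in Hete KO, and 127, 161 and 78.1 TPM in WT libraries. Hete KO lay below WT without overlap, with a log2 fold change of -1.44 ± 0.32 (edgeR adjusted p = 0.0654), and Homo KO overlapped with WT, with -0.72 ± 0.31 (edgeR adjusted p = 0.292). Cd9, a tetraspanin that many other cells also carry, had 43.6, 37.8 and 27.3 TPM in Homo KO, 33.0, 26.9 and 34.6 TPM in Hete KO, and 46.8, 39.3 and 35.7 TPM in WT libraries. It was nearly as steady as Csf1, with a 1.74-fold range and a log2 fold change of -0.42 ± 0.16 in Hete KO.

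Msr1, Clec4n and Clec7a, a scavenger receptor and the lectins dectin-2 and dectin-1 that bind fungal sugars, had low levels. Msr1 ranged from 4.32 to 8.30 TPM in Homo KO, from 2.27 to 4.38 TPM in Hete KO and from 4.0 to 14.3 TPM in WT libraries, with a log2 fold change of -1.32 ± 0.40 in Hete KO against WT. The median of the 3 genes was -0.56 in Homo KO and -0.74 in Hete KO against WT. None passed edgeR's test, and their groups overlapped in TPM. Msr1 was called lower in Hete KO against WT by DESeq2 (adjusted p = 0.00964). Of the TPM of Clec4n and Clec7a, 33.9 and 37.7% came from coding transcripts.

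Within a library, the lipid-associated and the resident-like sums had a ratio of 0.797, 0.675 and 0.499 in Homo KO, 0.633, 0.523 and 0.558 in Hete KO, and 0.913, 0.910 and 0.618 in WT libraries. The ratio was high in WT 1 and WT 2, while WT 3 was just below Hete KO 1, so the groups overlapped. Without Lgals3 the ratio was 0.383, 0.324 and 0.244 in Homo KO, 0.309, 0.283 and 0.290 in Hete KO, and 0.443, 0.356 and 0.257 in WT libraries. Without that gene WT 3 lay inside the Homo KO range and below all Hete KO libraries. Libraries with many macrophage transcripts also had the higher ratios, so the ratio moved with the overall level. Relative to Adgre1, Trem2 was 0.288, 0.204 and 0.0740 in Homo KO, 0.0863, 0.115 and 0.0443 in Hete KO, and 0.247, 0.398 and 0.186 in WT libraries. Trem2 was below WT in all Hete KO libraries and in Homo KO 3 also per unit of Adgre1. Lgals3 per Adgre1 varied less, at 4.67, 4.48 and 4.38 in Homo KO, 3.51, 3.96 and 3.99 in Hete KO, and 4.15, 5.23 and 4.64 in WT libraries. Cd163 stood at 1.74, 1.89 and 3.60 per Adgre1 in Homo KO, 1.83, 5.26 and 4.66 in Hete KO, and 1.43, 1.40 and 3.03 in WT libraries, highest where Adgre1 was low. These ratios are descriptions of the libraries and were not tested.

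**Figure D4:**
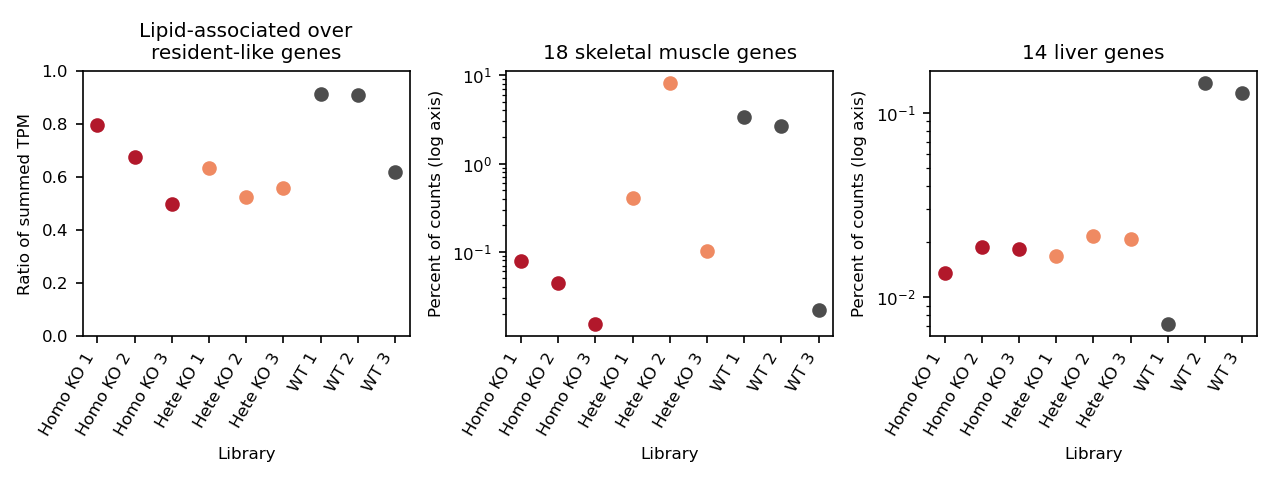
Left, ratio of the summed TPM of the 4 lipid-associated to the 5 resident-like genes in each library; middle and right, percent of counts in the skeletal muscle and liver gene lists (log axes). The ratio is 0.913 and 0.910 in WT 1 and WT 2, which also carry muscle transcripts, and 0.618 in WT 3, with few of them. It is 0.523 in Hete KO 2, which has the most muscle transcripts, and 0.797 in Homo KO 1, which has few.

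Homo KO against Hete KO asks whether the knockout groups differ. No member passed edgeR's test, as for all genes (0%), and DESeq2 called no member either. Without adjustment, Csf1r, Tyrobp, Folr2, Clec10a and Lgals3 had p under 0.05 with higher levels in Homo KO, 5 of 35 against 2.25% of all genes, and no member had such a p in the other direction. The largest of these differences were 0.90 ± 0.24 for Clec10a and 0.80 ± 0.26 for Tyrobp on the log2 scale (edgeR adjusted p = 0.899 for both). Folr2 gave 0.75 ± 0.26, Lgals3 0.72 ± 0.31 and Csf1r 0.57 ± 0.21. In Tyrobp and Ms4a4a every Homo KO library lay above every Hete KO library, as in 4.51% of all genes, and the log2 difference of Ms4a4a was 0.52 ± 0.30. Of the 35 members 3 had a log2 difference below 0, against 49.5% of all genes, and the median was 0.44, against 0.00 over all genes.

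With both knockout groups together against WT, no member passed edgeR's test either, against 1.52% of all genes called lower and 0.824% called higher. Of the members 34 had a log2 fold change below 0, against 50.5% of all genes. Unadjusted p was under 0.05 for 23 members, all lower, against 12.3% of all genes, and DESeq2 called 14 members lower (6.48% of all genes). With Hete KO 1 left out, edgeR called 8 members lower (3.8% of all genes). The smallest adjusted p values by edgeR were 0.0544 for Irf8, 0.0547 for Tyrobp, 0.0555 for Lyz2, 0.0604 for Lgals3, 0.0657 for Trem2 and 0.0667 for Spi1. Their log2 fold changes were -1.06 ± 0.24 for Irf8, -0.92 ± 0.21 for Tyrobp, -0.94 ± 0.22 for Lyz2, -1.08 ± 0.26 for Lgals3, -1.56 ± 0.40 for Trem2 and -1.0 ± 0.25 for Spi1. Without the muscle-transcript libraries these values ranged from -0.89 for Trem2 to -0.52 for Lyz2, and the median of all 35 members was -0.20 in place of -0.63.

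Other genes of the same pathways were read from lists outside the 35. Of 13 other resident-type genes, Vsig4 and Fcna passed the test in both knockout groups together against WT. Vsig4, a complement receptor of resident macrophages, had 3.86, 3.01 and 3.77 TPM in Homo KO, 3.68, 1.65 and 0.792 TPM in Hete KO, and 5.31, 7.73 and 2.42 TPM in WT libraries. It fell by 1.99 ± 0.41 on the log2 scale (edgeR adjusted p = 0.0436), although WT 3 lay below 4 knockout libraries in TPM. On log2 TPM, limma gave Vsig4 log2 fold changes of -0.78 and -0.89 with pseudocounts of 0.5 and 0.1 (adjusted p = 0.370 and 0.379). Fcna, a ficolin that binds sugars, had 4.35, 3.39 and 1.55 TPM in Homo KO, 1.70, 2.01 and 0.995 TPM in Hete KO, and 4.75, 4.05 and 6.11 TPM in WT libraries, and fell by 1.29 ± 0.27 (edgeR adjusted p = 0.0462). Of 12 other lipid-associated and lysosomal genes, Ctsl, the protease cathepsin L, passed, with 414, 486 and 319 TPM in Homo KO, 400, 177 and 297 TPM in Hete KO, and 506, 587 and 527 TPM in WT libraries. It fell by 0.78 ± 0.17 (edgeR adjusted p = 0.0480), with all knockout libraries below all WT libraries. Vsig4 and Fcna were called in 6 and Ctsl in 7 of 19 other settings, and all 3 were lost when any Homo KO library, Hete KO 3, WT 2 or WT 3 was left out, with edgeR adjusted p between 0.0674 and 0.179. Without the muscle-transcript libraries the log2 fold changes were -1.36 for Vsig4, -1.59 for Fcna and -0.77 for Ctsl, and without the liver-transcript libraries, where WT 1 alone stands for WT, -1.96, -0.87 and -0.66. No call was kept there, with edgeR adjusted p between 0.101 and 0.552. Leaving out WT 1 gave adjusted p of 0.0561 for Vsig4, 0.0563 for Ctsl and 0.0388 for Fcna, and leaving out Hete KO 2 gave 0.0634, 0.0399 and 0.0659.

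The 11 genes of the tyrosine-motif pathway below the adaptors, such as the kinase Syk, had log2 fold changes below 0 in both comparisons with WT, with medians of -0.29 in Homo KO and -0.61 in Hete KO, and none passed. Of 10 other genes of the CSF1 receptor axis 9 were tested, with medians of -0.36 in Homo KO and -0.40 in Hete KO, and none passed. Medians of the 13 resident-type and the 12 lipid-associated genes were -0.26 and -0.56 in Homo KO and -0.52 and -0.80 in Hete KO against WT.

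Markers of other blood cells were read in the same way. The 8 monocyte genes had medians of -0.52 in Homo KO and -0.32 in Hete KO against WT, and 1 of them, Fn1, which fibroblasts make as well, was called lower in both knockout groups together (log2 fold change -1.15 ± 0.20, edgeR adjusted p = 0.0395). The 9 dendritic cell genes had medians of 0.38 in Homo KO and -0.03 in Hete KO, with 0 called. The 8 B cell genes had medians of 1.53 in Homo KO and 1.48 in Hete KO against WT, and their sum was 15.7 to 18.9 TPM in Homo KO, 14.9 to 24.2 TPM in Hete KO and 6.47 to 7.17 TPM in WT libraries. The gene Cr2 of that list was called higher in both knockout groups together (log2 fold change 0.94 ± 0.18, edgeR adjusted p = 0.0408). The calls of Fn1 and Cr2 were lost when any Homo KO library, Hete KO 3, WT 2 or WT 3 was left out (edgeR adjusted p from 0.0534 to 0.152). Without the muscle-transcript libraries Fn1 gave -0.97 and Cr2 0.98 (edgeR adjusted p = 0.148 and 0.153), and without the liver-transcript libraries -0.68 and 0.68 (edgeR adjusted p = 0.445 and 0.460). The 10 T and NK cell genes had medians of 0.32 in Homo KO and 0.15 in Hete KO, the 6 mast cell genes -0.28 and -0.36, and the 3 neutrophil genes that could be tested -0.16 and 0.27, with none called.

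Among tissue cells, the 9 progenitor and fibroblast genes had medians of -0.41 in Homo KO and -0.94 in Hete KO against WT, and Dpp4 was called lower in Hete KO (edgeR adjusted p = 0.0490). That call stood in 6 of 20 other settings. It was lost without any single Homo KO library, Hete KO 2, Hete KO 3, WT 2 or WT 3 (edgeR adjusted p from 0.0761 to 0.198), with RLE normalization (0.0501), in the fit of the groups compared only (0.130) and by limma (0.191 and 0.197). The log2 fold change of Dpp4 in Hete KO was -1.15, against -1.37 without the muscle-transcript libraries and -0.68 without the liver-transcript libraries (edgeR adjusted p = 0.0927 and 0.397). In both knockout groups together, Dpp4 and Pi16 of that list were called lower, with log2 fold changes of -1.20 and -1.88, and the adipocyte gene Pck1 was called higher, with 1.53 (edgeR adjusted p = 0.0265, 0.0395 and 0.0411). Each of these 3 calls was lost without Hete KO 3, Homo KO 2, Homo KO 3, WT 2 or WT 3 (edgeR adjusted p from 0.0526 to 0.153). Without the liver-transcript libraries Dpp4 gave -0.73, Pi16 -0.76 and Pck1 2.40 (edgeR adjusted p = 0.395, 0.601 and 0.353). Without the muscle-transcript libraries the call of Pck1 was lost (1.10, edgeR adjusted p = 0.211). The 10 adipocyte genes had medians of 0.39 in Homo KO and 0.31 in Hete KO, with a sum of 15766 to 19355 TPM in Homo KO, 15759 to 16848 TPM in Hete KO and 11762 to 15447 TPM in WT libraries. The 10 endothelial genes had medians of 0.08 in Homo KO and -0.18 in Hete KO. The 18 skeletal muscle genes had medians of -5.42 in Homo KO and 0.60 in Hete KO, and the 14 liver genes -4.84 and -5.09, 4 of which were called lower in both knockout groups together (Apoa2, Hpx, Apob and Ttr, the last 2 named after their values were seen). Beside the macrophage genes and their pathways, the adipocyte, B cell, and T and NK cell lists had medians above 0 in both knockout groups. The progenitor, monocyte, mast cell and liver lists had medians below 0 in both. The part of this makeup in the macrophage values was not tested.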

How the data were processed

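Whole subcutaneous fat RNA was sequenced in 9 libraries, 3 in each group. Per the file headers, the deposited tables hold estimated counts (expected counts) and TPM per transcript; the authors scaled TPM by effective length and library total. The submitters' processing notes name mm10 as the build. The quantifier is not given in the sources used here. Of 113193 transcripts, 111362 matched GENCODE M21 by identifier (109294 with the same version); the 1831 others held 0.58 to 1.06% of the counts and were left out. Both values were summed per gene, and counts were rounded.

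Tests were run in edgeR 4.0.16 under R 4.3.3 (TMM, default expression filter, quasi-likelihood F-test, all 9 libraries in 1 fit, 6 residual degrees of freedom), two-sided, with Benjamini-Hochberg adjustment over all 17968 genes. Fold changes and SE come from counts with a prior count of 0.125, and levels are TPM. DESeq2 1.42.0, limma 3.58.1, Python 3.11.15, pandas 2.3.3, numpy 2.4.6 and matplotlib 3.10.9 served the alternatives, summaries and plots. The fit was tested on simulated data.

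The members, lists and tests were chosen with earlier results of these data known. Values in every library are given for the CSF1 axis, resident-like and lipid-associated members, Adgre1, Cd68, Lyz2 and Ptprc. They are also given for the Fc receptors and adaptors Fcgr1, Fcgr2b, Fcgr3, Fcer1g and Tyrobp, and any member past the threshold or without overlap between groups in TPM. From each of the other 15 lists at most the 2 genes with the smallest p per comparison are named. Beyond being littermates, the labels do not say how animals or batches are related, so p-values measure the spread between these libraries. Estimated counts give no exact counting interval.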

Additional observations from a re-analysis of the deposited data

How the results depend on the processing

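By edgeR 0 members were called in any of the 4 comparisons, and no setting called a member higher. DESeq2 called 1 member lower in Homo KO against WT, 17 in Hete KO against WT, 0 in Homo KO against Hete KO and 14 in both knockout groups against WT, and over all genes 652, 1674, 8 and 1838, against 0, 75, 0 and 421 by edgeR. Without the filter on low counts 3 members were called in Hete KO and 6 in both groups together (0.66 and 2.11% of all genes), and over all genes 1 in Homo KO, 258 in Hete KO and 759 in both. With coding transcripts only, all-gene counts were 21 in Hete KO and 224 in both; in fits of the groups compared only, which the comparison of both groups does not have, 7 in Homo KO and 0 in Hete KO. With limma on log2(TPM + pseudocount) they were 0 in Hete KO with either pseudocount, and 12 (pseudocount 0.5) and 6 (pseudocount 0.1) in both. RLE normalization and the filter of 1 CPM in 3 libraries left every count within 1.5-fold.

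These settings were chosen after seeing the data: coding transcripts only, and leaving out the libraries with muscle transcripts (WT 1, WT 2, Hete KO 2) or liver transcripts (WT 2, WT 3). Without the liver-transcript libraries, all-gene counts were 2 in Homo KO, 1 in Hete KO and 2 in both. Without the muscle-transcript libraries, they were 41 in Homo KO, 11 in Hete KO and 102 in both, and 0 members were called. The members' medians were then -0.0135 in Homo KO, -0.31 in Hete KO and -0.20 in both. Those of the resident-like genes were -0.0135 in Homo KO, -0.49 in Hete KO and 0.32 in Homo KO against Hete KO, and those of the lipid-associated genes -0.54 in Hete KO and -0.38 in both. Over all 35 members 19 were then below 0 in Homo KO and 29 in Hete KO, against 34 and 35. Among the members whose fold changes are printed, signs turned there for Csf1r (0.0767), Mrc1 (0.0241) and Gpnmb (0.56) in Homo KO, and for Ptprc (0.17) and Fcgr3 (0.0872) in Hete KO. Clec10a in Homo KO against WT turned to 0.05 without WT 2, 0.04 without Homo KO 2, 0.16 without Homo KO 3, 0.11 without the liver-transcript libraries and 0.20 with coding transcripts. Its range over libraries left out was -0.26 to 0.16. Csf1 in Hete KO turned to 0.0116 without Hete KO 3, within a range of -0.12 to 0.0116. The causes were not tested.

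With each library left out in turn, the all-gene counts ranged from 0 to 153 in Homo KO, from 0 to 958 in Hete KO and from 2 to 1095 in both. The highest counts came without WT 1 in Homo KO and without Hete KO 1 in the others, and without any single Homo KO library the Hete KO count was 0 to 2. Members called ranged from 0 to 12 in Hete KO and from 0 to 8 in both, above 0 only without Hete KO 1. The median of all members ranged from -0.61 to -0.27 in Homo KO, from -1.12 to -0.73 in Hete KO, from 0.24 to 0.67 in Homo KO against Hete KO and from -0.82 to -0.51 in both. The resident-like median ranged from -0.42 to -0.17 in Homo KO, -1.12 to -0.67 in Hete KO, 0.33 to 0.76 in Homo KO against Hete KO and -0.58 to -0.39 in both. The lipid-associated median ranged from -1.02 to -0.37 in Homo KO, -1.84 to -1.34 in Hete KO, 0.28 to 0.99 in Homo KO against Hete KO and -1.35 to -0.90 in both.

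Of 51 printed member fold changes, 16 moved by over 1.5 times when 1 library was left out, 9 of them in Homo KO and 6 in Hete KO against WT, 1 in Homo KO against Hete KO and 0 in both knockout groups together. Csf1r ranged from -0.46 to -0.13, Gpnmb from -1.08 to -0.26 and Tyrobp from -0.71 to -0.28 in Homo KO, and Cd163 from -0.37 to -0.04 in Hete KO.

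The labels do not say whether the replicate numbers pair the samples. Deviations of same-numbered libraries correlated between -0.07 and 0.46 (median 0.05), others between -0.45 and 0.25 (median 0). The highest value was that of WT 3 and Hete KO 3. With 3 libraries per group these values cannot exclude a pairing. With the replicate block, edgeR called 9 members lower in Hete KO and 10 in both (0.868 and 1.74% of all genes), and 248 genes in Hete KO.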
